A study of Homo sapiens with 16 samples.

Results

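The C/EBP, ATF and Tribbles stress regulators were 10 genes, read by 13 probe sets, among the 11963 genes that a single-symbol probe set of the array measured. They were found by gene symbol. Earlier results of these same arrays were known when the genes were proposed, and they had been chosen from their changes with time, so the differences between 6 h and 12 h are given here as a description with no test. There were 5 members of the C/EBP family (CEBPA, CEBPB, CEBPD, CEBPG and DDIT3), 3 ATF factors (ATF3, ATF4 and ATF5) and 2 Tribbles genes (TRIB1 and TRIB3). All 10 passed the filter on dim genes, so none was lost from the fit of 8109 genes.

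The cells were HepG2, a human hepatoma line that keeps many liver functions. Each culture received a recombinant adenovirus that carried either LacZ, the bacterial beta-galactosidase gene used as the control insert, or GPI-PLD, the phospholipase that cuts glycosylphosphatidylinositol anchors, and RNA was taken after 6 h or 12 h. The 4 groups of virus and time held 4 Affymetrix arrays each, made from 10 µg of total RNA. All 16 arrays came from cells given a virus, and no untransduced cells were used here, so hours in culture and hours after the virus cannot be told apart. In a bulk RNA sample, fewer cells of a type and less RNA per cell cannot be told apart either.

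C/EBP and ATF proteins are leucine zipper factors that bind DNA as pairs and can pair across the families. In the integrated stress response, phosphorylation of the initiation factor eIF2 slows most translation but favours translation of ATF4, and ATF4 then drives genes for amino acid supply as well as further regulators such as DDIT3 (the protein CHOP), ATF3 and TRIB3. In liver, CEBPA keeps the differentiated programme and CEBPB and CEBPD act in the acute phase response. Tribbles proteins are pseudokinases without normal kinase activity that bring the ubiquitin ligase COP1 to C/EBPα or bind AKT and MAP kinase kinases.

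GPLD1, the human gene for GPI-PLD, did not differ between the viruses beyond its error. Its brightest probe set read 260.5 ± 37.7 in LacZ and 284 ± 138 in GPI-PLD arrays at 6 h (MAS5 signal, mean ± SD, n = 4). At 12 h it read 319 ± 136 and 328 ± 46.9, and limma gave log2 differences of 0.02 ± 0.33 (SE, adjusted p = 0.998) and 0.12 ± 0.33 (adjusted p = 0.959). Whether the probe set lies in the insert is not given in the sources used here, so GPI-PLD below means the arrays labelled with that virus. Hepatocyte markers were bright in all groups, with 9 of 9 measured genes above the filter and summed signals of 383860 to 474524. Fibroblast markers summed to 1433 to 2798 (5 of 7 above the filter), endothelial markers to 281 to 952 (1 of 6) and leukocyte markers to 6721 to 14221 (3 of 6, most of it lysozyme, LYZ). None of these marker genes passed the test for virus or time.

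The clearest pattern in the regulators was a rise between 6 h and 12 h under both viruses, and they had been chosen from such changes. CEBPB was 4.09-fold higher at 12 h under LacZ and 3.26-fold higher under GPI-PLD. ATF3 was 3.39-fold and 4.49-fold higher, DDIT3 3.03-fold and 3.53-fold, and TRIB3 2.44-fold and 2.36-fold. Smaller differences were seen for TRIB1, ATF4 and CEBPG, and CEBPA and ATF5 had overlapping arrays. Folds are on signal + 62.7, a constant added before the log2, and so understate the change of dim genes.

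The 4 regulators with the largest differences are shown by their RefSeq promoter sequence, 250 bases before the outermost RefSeq start in GRCh38.p14, read 5′ to 3′ on the gene's strand. Capitals mark a CCAAT box (CCAAT, or ATTGG on the other strand) or the C/EBP-ATF response element (CARE, TGATGNAA on either strand), the site at which ATF4 and a C/EBP partner are known to bind together. No matches overlapped in these stretches.
CEBPB, chr20:50190333-50190582 (+ strand): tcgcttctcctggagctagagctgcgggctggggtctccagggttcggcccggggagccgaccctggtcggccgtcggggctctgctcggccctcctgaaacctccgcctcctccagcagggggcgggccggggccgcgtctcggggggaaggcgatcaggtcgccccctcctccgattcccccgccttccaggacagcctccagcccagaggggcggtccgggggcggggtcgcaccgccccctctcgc
DDIT3, chr12:57520518-57520767 (- strand): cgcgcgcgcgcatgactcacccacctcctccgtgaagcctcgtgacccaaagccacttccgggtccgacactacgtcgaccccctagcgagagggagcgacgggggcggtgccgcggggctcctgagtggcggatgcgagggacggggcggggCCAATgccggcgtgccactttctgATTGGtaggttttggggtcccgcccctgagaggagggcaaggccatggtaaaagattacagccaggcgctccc
ATF3, chr1:212565157-212565406 (+ strand): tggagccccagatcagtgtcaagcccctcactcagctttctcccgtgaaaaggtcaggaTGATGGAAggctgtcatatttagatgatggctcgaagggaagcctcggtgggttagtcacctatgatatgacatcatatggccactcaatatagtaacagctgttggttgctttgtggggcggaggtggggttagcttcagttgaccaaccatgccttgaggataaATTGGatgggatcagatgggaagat
TRIB3, chr20:381045-381294 (+ strand): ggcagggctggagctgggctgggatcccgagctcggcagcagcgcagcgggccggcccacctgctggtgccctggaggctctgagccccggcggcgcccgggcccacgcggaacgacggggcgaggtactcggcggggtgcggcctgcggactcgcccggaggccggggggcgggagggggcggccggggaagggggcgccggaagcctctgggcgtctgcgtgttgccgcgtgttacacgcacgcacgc

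The DDIT3 stretch held a CCAAT box on each strand, whose first bases were at -97 and -73 from the start. The ATF3 stretch held a CARE from -191 and a CCAAT box on the other strand from -25. No capitals appear for CEBPB and TRIB3, which says only that these letters are not in this window. Promoters were on file for 8 of the 10 members, 17 in all. In the full window of 300 bases (250 before and 50 after the start), CARE was present in 2 of those 8 members, ATF3 and CEBPG, beside 4.46% of all 27305 genes. By promoter it was in 2 of the 17, beside 3.62% of all 35116 promoters. CCAAT was present in 4 of the 8 members, beside 39.7% of all genes, and in 6 of the 17 promoters, beside 34.6% of all promoters. The TATA box letters TATAAA were present in 4 of the 8, beside 14% of genes, and in 5 of the 17 promoters, beside 11.5% of promoters. The matches in CEBPB and ATF3 were at an inner start, the one in ATF3 beginning at -230. The cAMP response element TGACGTCA (1.85% of promoters), the CRE-C/EBP composite TGACGNAA (1.66%) and the C/EBP palindrome TTGCGCAA (0.151%) were in 0 members. A match is a description of the letters, not a measured site.

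CARE was common in promoters of known ATF4 and CHOP target genes. It was found in 12 of the 35 listed targets with a promoter, 34.3%. The element was described in some of these genes, so this share is not independent of the list. The following windows of 30 bases show the CARE, in capitals, in the 2 regulators and in 6 listed targets.
CEBPG, chr19:33374060-33374089 (+ strand): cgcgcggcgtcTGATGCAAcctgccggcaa
ATF3, chr1:212565205-212565234 (+ strand): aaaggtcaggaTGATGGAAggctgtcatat
ASNS, chr7:97872458-97872487 (- strand): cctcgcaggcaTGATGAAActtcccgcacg
HERPUD1, chr16:56931955-56931984 (+ strand): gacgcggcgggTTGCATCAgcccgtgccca
CARS1, chr11:3057407-3057436 (- strand): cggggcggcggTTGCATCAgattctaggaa
GARS1, chr7:30594834-30594863 (+ strand): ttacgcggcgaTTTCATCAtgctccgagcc
SLC1A5, chr19:46784893-46784922 (- strand): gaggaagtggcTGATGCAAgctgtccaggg
AARS1, chr16:70289675-70289704 (- strand): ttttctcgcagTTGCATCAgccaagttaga

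The CEBPG copy began at -42 from an inner start of the gene. ASNS, the asparagine synthetase in which the element is best known, was higher at 12 h by a log2 difference of 0.86 ± 0.09 (SE) under LacZ and 1.04 ± 0.09 under GPI-PLD (limma adjusted p = 4.47e-07 and 1.97e-08). HERPUD1, an endoplasmic reticulum membrane protein of the degradation pathway, rose by 1.65 ± 0.10 and 1.69 ± 0.10. AARS1, the alanyl-tRNA synthetase, has the same letters but gave 0.15 ± 0.11 and 0.33 ± 0.11, neither past the threshold (adjusted p = 0.538 and 0.0728).

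Over the array, tested genes outside the 10 members with a CARE in a promoter numbered 198. Of these, 18 (9.09%) were called higher at 12 h under LacZ and 24 (12.1%) under GPI-PLD, beside 3.4% and 4.38% of the 6505 tested genes without one. Outside the list of ATF4 and CHOP targets, the shares of the remaining 189 genes with a CARE were 5.82% and 8.47%. Those of the 234 genes with the CRE-C/EBP composite, none of them on the list, were 5.98% and 8.55%. Of these 234 genes 4.27% and 6.84% were called lower, beside 3.35% and 5.13% of genes without the composite. Of the 198 genes with a CARE 1.52% and 3.03% were called lower, beside 3.44% and 5.26% without. The shares called higher were 5.25% and 6.72% with TATAAA, 5.26% and 5.64% with TGACGTCA, and 3.6% and 4.34% with a CCAAT box. These shares are a description, and no test was made of them.

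**Figure D1:**
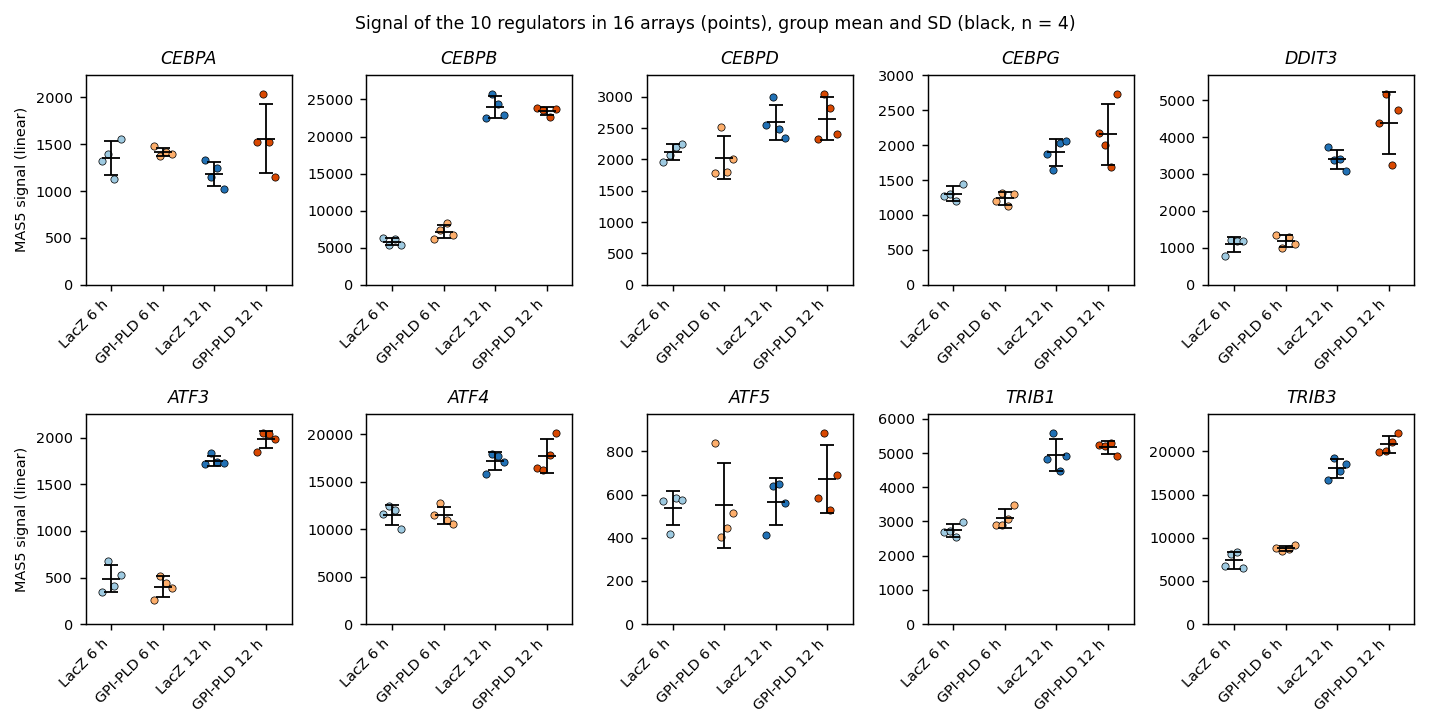
MAS5 signal (linear, y axis from 0) of each of the 10 regulators in the 4 groups of virus and time; points are single arrays, and the black bar and whiskers give the group mean and SD (n = 4). CEBPB, DDIT3, ATF3, ATF4, CEBPG, TRIB1 and TRIB3 have every 12 h point above every 6 h point of the same virus, CEBPD has in LacZ arrays, and CEBPA and ATF5 have in neither.

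CEBPB, the C/EBPβ factor of the acute phase and stress responses, was the second highest riser of all 8109 genes in LacZ cells. Its signals in LacZ arrays at 6 h were 6290.4, 5389, 6111.6 and 5420.5, and at 12 h 22555.9, 25784.9, 24431.6 and 22945.6. In GPI-PLD arrays they were 6216, 7410.4, 8331.2 and 6755.4 at 6 h and 23794.8, 23577.2, 22632.5 and 23647.7 at 12 h. The times were widely separated under both viruses, while the 2 viruses overlapped at each time. Its log2 difference over time, with SE, was 2.03 ± 0.08 under LacZ and 1.71 ± 0.08 under GPI-PLD. DDIT4 and SLC7A11, named below, gave 2.03 ± 0.17 and 2.01 ± 0.12 under LacZ, so the rank of CEBPB is not firm.

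DDIT3, the C/EBP family partner CHOP that acts in prolonged endoplasmic reticulum stress, read 789.8, 1198.3, 1194 and 1181.8 in LacZ arrays at 6 h and 3720.8, 3365.7, 3410.5 and 3077.5 at 12 h. In GPI-PLD arrays it read 1352.2, 999.2, 1297.1 and 1098.7 at 6 h and 4375.2, 5175.8, 3236.3 and 4731.3 at 12 h. LacZ replicate 1 stood below the other 3 at 6 h, and GPI-PLD replicate 3 below the other 3 at 12 h. The times did not overlap, and the log2 differences were 1.60 ± 0.14 and 1.82 ± 0.14 in LacZ and GPI-PLD cells.

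CEBPG, a C/EBP protein without its own activation domain that pairs with ATF4, had signals of 1276.2, 1299.9, 1194.3 and 1449.1 in LacZ arrays at 6 h and 1872.1, 1637.4, 2033.5 and 2057 at 12 h. In GPI-PLD arrays the signals were 1203.6, 1314.3, 1126.3 and 1304.8 at 6 h and 2180.1, 2009.7, 1685.8 and 2738.8 at 12 h. Both times were apart, with the widest spread in GPI-PLD arrays at 12 h, where replicate 4 was highest. Its log2 differences were 0.52 ± 0.13 and 0.75 ± 0.13.

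CEBPD, the acute phase factor C/EBPδ, changed less. Its brighter probe set read 1952.9 to 2241.1 in LacZ arrays at 6 h and 2346 to 2988.5 at 12 h, which did not overlap. GPI-PLD arrays read 1775.5 to 2519.4 at 6 h and 2322 to 3049.3 at 12 h, which did. The log2 differences were 0.28 ± 0.12 and 0.38 ± 0.12. The other CEBPD probe set was dim, with group means from 45.7 to 137, and did not follow the brighter one.

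CEBPA, the C/EBPα factor of mature hepatocytes, did not rise with the others. LacZ arrays read 1323, 1396.9, 1127.3 and 1555.5 at 6 h and 1325.5, 1147, 1240.9 and 1019.4 at 12 h. GPI-PLD arrays read 1479.8, 1370.2, 1418.1 and 1395.5 at 6 h and 1522.2, 2038.6, 1521.3 and 1149.4 at 12 h. The viruses overlapped at each time and the times overlapped under each virus, although all GPI-PLD arrays at 6 h were above all LacZ arrays at 12 h. Replicate 2 of the GPI-PLD arrays at 12 h was the highest array of all. The log2 differences with time were -0.18 ± 0.14 in LacZ cells (-0.11 without LacZ 6 h replicate 4) and 0.11 ± 0.14 in GPI-PLD cells (-0.029 without GPI-PLD 12 h replicate 2).

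ATF4, whose level is known to be set largely at translation, already had bright signals at 6 h. LacZ arrays read 11655.6, 12450.5, 11987.5 and 9974 at 6 h and 15861, 17937.5, 17749.9 and 17063 at 12 h. GPI-PLD arrays read 11502.6, 12745.3, 10946.2 and 10594.6 and then 16493, 16236, 17831.9 and 20151.9. All 12 h arrays were above all 6 h arrays, by log2 differences of 0.58 ± 0.09 and 0.62 ± 0.09, or 1.49-fold and 1.54-fold.

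ATF3, a factor induced by many stresses that can repress or activate as it pairs, had the largest rise of all 8109 genes in GPI-PLD cells. LacZ arrays read 346, 672.7, 405.2 and 523.5 at 6 h and 1716.7, 1833.6, 1743 and 1727.6 at 12 h. GPI-PLD arrays read 258.3, 521.3, 441.2 and 391.6 at 6 h and 1850.8, 2053.2, 2046.9 and 1986.6 at 12 h. The 6 h arrays were scattered and the 12 h arrays close together, and at 12 h all 4 GPI-PLD arrays were above all 4 LacZ arrays. The log2 differences with time were 1.76 ± 0.18 and 2.17 ± 0.18. INHBE, named below, gave 2.17 ± 0.13 in GPI-PLD cells, so the rank of ATF3 is not firm.

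ATF5, another stress factor that is controlled in translation, showed no separation by its brightest probe set. Its brightest probe set had means of 537 ± 79.0 (SD) and 567 ± 108 in LacZ arrays at 6 h and 12 h, and 549.9 ± 198 and 673 ± 157 in GPI-PLD arrays. Its log2 differences with time were 0.06 ± 0.21 and 0.29 ± 0.21, the first smaller than its error. The other probe sets of ATF5 were dim, with group means of 146 to 205 and of 61.9 to 141. In the dimmest all GPI-PLD arrays were below all LacZ arrays at 12 h, by -0.71 ± 0.33 (limma over all probe sets, adjusted p = 0.733). The brightest gave 0.22 ± 0.22 in that comparison.

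TRIB3, the ATF4 and CHOP target that binds AKT and dampens ATF4 in turn, read 6686.5, 8100.7, 8338.4 and 6438.9 in LacZ arrays at 6 h and 16726.7, 19261.9, 17686.4 and 18508.4 at 12 h. In GPI-PLD arrays it read 8818.3, 8437.4, 8722.6 and 9183.8 at 6 h and 19918.1, 20102.2, 21062.1 and 22142.7 at 12 h. The 4 groups formed 4 separate ranges in the order LacZ 6 h, GPI-PLD 6 h, LacZ 12 h and GPI-PLD 12 h. The log2 differences with time were 1.29 ± 0.08 in LacZ and 1.24 ± 0.08 in GPI-PLD cells.

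TRIB1, which directs COP1 to C/EBPα in liver and myeloid cells, read 2705.4, 2713.7, 2551.3 and 2991.5 in LacZ arrays at 6 h and 4837, 5588.7, 4470.9 and 4915.3 at 12 h. GPI-PLD arrays read 2901.7, 2889.8, 3085.9 and 3478.9 at 6 h and 5246.3, 5215, 5303.7 and 4900.9 at 12 h. The times were apart and the viruses overlapped at each time. The log2 differences were 0.84 ± 0.09 and 0.73 ± 0.09.

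**Figure D2:**
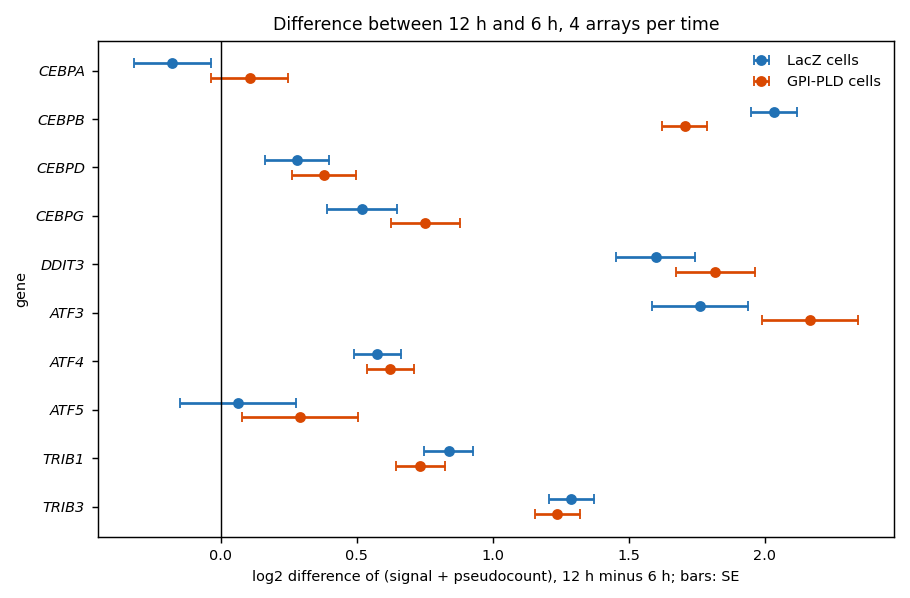
Log2 difference of signal plus pseudocount, 12 h minus 6 h (x axis), for each regulator (y axis) in LacZ and GPI-PLD cells; points are fitted differences over 4 arrays per time and bars are the standard error. CEBPB, ATF3, DDIT3 and TRIB3 lie beyond 1 in both, from 1.24 to 2.17, and CEBPA and ATF5 lie nearest 0.

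As a count, all 4 arrays at 12 h were above all 4 at 6 h for 8 regulators in LacZ cells (6.70% of all genes) and 7 in GPI-PLD cells (8.04%). A log2 difference of at least 1 under both viruses was reached by 4 regulators and by 0.493% of all genes, 40 in number. The members' median difference was 0.71 under LacZ and 0.74 under GPI-PLD, beside 0.00 and 0.01 over all tested genes. Since the genes were chosen for changes with time, nothing is read from these shares.

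Genes whose group means ran most like a regulator's were found by the root mean square distance of log2 means over the other 3 groups, each taken relative to LacZ at 6 h. For CEBPB they were SLC7A11, the cystine transporter subunit, at a distance of 0.043, and DDIT4, an inhibitor of mTOR signalling, at 0.050. SLC7A11 means were 1211, 1485, 5002 and 5259.5 in LacZ 6 h, GPI-PLD 6 h, LacZ 12 h and GPI-PLD 12 h arrays. For ATF3 they were INHBE, an inhibin beta subunit made in liver, at 0.030, and CTH, which makes cysteine, at 0.183. INHBE means were 839, 692, 2976 and 3308 in the same order, lower in GPI-PLD than in LacZ arrays at 6 h and higher at 12 h, as ATF3 means were. INHBE was picked for its nearness in these same means, so the shared order follows from the rule. The virus differences of ATF3 were -0.24 ± 0.18 at 6 h and 0.17 ± 0.18 at 12 h (log2, SE). For DDIT3 they were GDF15, a stress-induced secreted factor, at 0.098 and HERPUD1 at 0.142. For TRIB3 they were GTPBP2, a GTP-binding protein of ribosome rescue, and the kinase PIM1, both at 0.085.

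Known targets of ATF4 and CHOP rose with time in most cases. Of 46 listed genes 38 were tested, and 26 rose under LacZ and 25 under GPI-PLD, with 0 lower, beside 3.64% and 4.59% of all genes called higher and 3.26% and 5.06% called lower (limma, adjusted p under 0.05). The median differences of the 38 were 0.66 and 0.64, beside 0.00 and 0.01 over all genes. The list was written with earlier results of these arrays known, so it is not independent evidence of a direction. INHBE rose by 1.75 ± 0.13 (SE) and 2.17 ± 0.13, SLC7A11 by 2.01 ± 0.12 and 1.78 ± 0.12, and DDIT4 by 2.03 ± 0.17 and 1.72 ± 0.17 (log2, limma adjusted p from 3.47e-11 to 5.35e-07). Not all listed targets passed the threshold. The serine synthesis enzymes PSAT1, PHGDH and PSPH gave 0.17, 0.28 and 0.33 in LacZ cells and 0.29, 0.22 and 0.01 in GPI-PLD cells. ERO1A, a CHOP target of oxidative folding, gave -0.07 and -0.09. None of these values was past the threshold.

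Of 18 tested genes that control eIF2, 2 rose under LacZ and 3 under GPI-PLD, beside 3.64% and 4.59% of all genes, and the medians were 0.05 and 0.07. PPP1R15A (GADD34), the stress-induced phosphatase subunit that reverses eIF2 phosphorylation and is itself an ATF4 and CHOP target, rose by 1.89 ± 0.18 and 1.46 ± 0.18 (adjusted p = 9.57e-08 and 4.16e-06). EIF2S2, the beta subunit of eIF2, rose by 0.42 ± 0.09 and 0.56 ± 0.09 (adjusted p = 0.0032 and 1.11e-04). EIF2AK3, the eIF2 kinase PERK, rose in GPI-PLD cells by 0.45 ± 0.13 (adjusted p = 0.0301) and gave 0.26 ± 0.13 in LacZ cells (adjusted p = 0.272).

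Among the other factors named for C/EBP, ATF, CREB or the PAR family, with XBP1 counted in, 2 of 17 tested rose under LacZ and 1 under GPI-PLD. The shares of all genes were 3.64% and 4.59%. One of the pair under LacZ, CEBPZ (0.49, adjusted p = 0.0319), shares the name but is a CCAAT-binding protein without a leucine zipper, and was looked up after its value was seen. NFIL3, a repressor that binds sites of the PAR family, rose by 1.20 ± 0.10 and 1.12 ± 0.10 (adjusted p = 1.61e-08 and 3.75e-08). ATF6, the membrane-bound factor of the unfolded protein response, gave 0.90 ± 0.31 and 0.48 ± 0.31 and did not pass (adjusted p = 0.0862 and 0.379). BATF3 was dim and gave 0.64 ± 0.56 and 0.59 ± 0.56. Its error was nearly as large as the difference. XBP1 gave 0.29 ± 0.09 and 0.12 ± 0.09 and did not pass (adjusted p = 0.0506 and 0.477).

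Among partners of Tribbles proteins, 1 of 10 tested rose under each virus, beside 3.64% and 4.59% of all genes. That gene was SQSTM1, the autophagy receptor p62, by 0.86 ± 0.13 and 0.86 ± 0.13 (adjusted p = 1.06e-04 and 8.70e-05). SMURF1, a ubiquitin ligase, gave 0.45 ± 0.22 and 0.12 ± 0.22, and the MAP kinase kinases MAP2K4 and MAP2K1 gave 0.33 ± 0.10 and 0.17 ± 0.12 in LacZ cells, all short of the threshold.

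Of 21 tested liver genes that C/EBP proteins are known to drive, 2 rose under LacZ and 3 under GPI-PLD, beside 3.64% and 4.59% of all genes. None was called lower, 14 and 15 of the 21 had a higher value, and the medians were 0.07 and 0.05. IGFBP1, a liver binding protein for insulin-like growth factors, rose by 1.26 ± 0.17 and 1.11 ± 0.17 (adjusted p = 1.05e-04 and 3.53e-04). ITIH3, a plasma protein of the acute phase, rose by 0.69 ± 0.12 and 0.58 ± 0.12. TAT, tyrosine aminotransferase, rose in GPI-PLD cells by 0.83 ± 0.21 (adjusted p = 0.0134) and gave 0.51 ± 0.21 in LacZ cells (adjusted p = 0.176). Complement C3 gave 0.20 ± 0.10 and 0.13 ± 0.10, and albumin (ALB) gave 0.01 ± 0.08 and 0.05 ± 0.08.

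The interleukin-6 and STAT3 pathway, which is known to induce CEBPB and CEBPD in liver, had 1 of 10 tested genes higher under LacZ and 0 under GPI-PLD by limma, where 1 had an unadjusted p under 0.05. The shares of all genes were 3.64% and 4.59%. IL6ST, the shared receptor chain gp130, rose by 0.39 ± 0.10 in LacZ cells (adjusted p = 0.0233) and gave 0.32 ± 0.10 in GPI-PLD cells (adjusted p = 0.0573). SOCS3, the feedback inhibitor that STAT3 induces, gave 0.17 ± 0.25 and 0.22 ± 0.25. JAK2 gave 0.39 ± 0.39 and 0.40 ± 0.39, and the oncostatin M receptor OSMR gave -0.19 ± 0.20 and -0.39 ± 0.20.

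**Figure D3:**
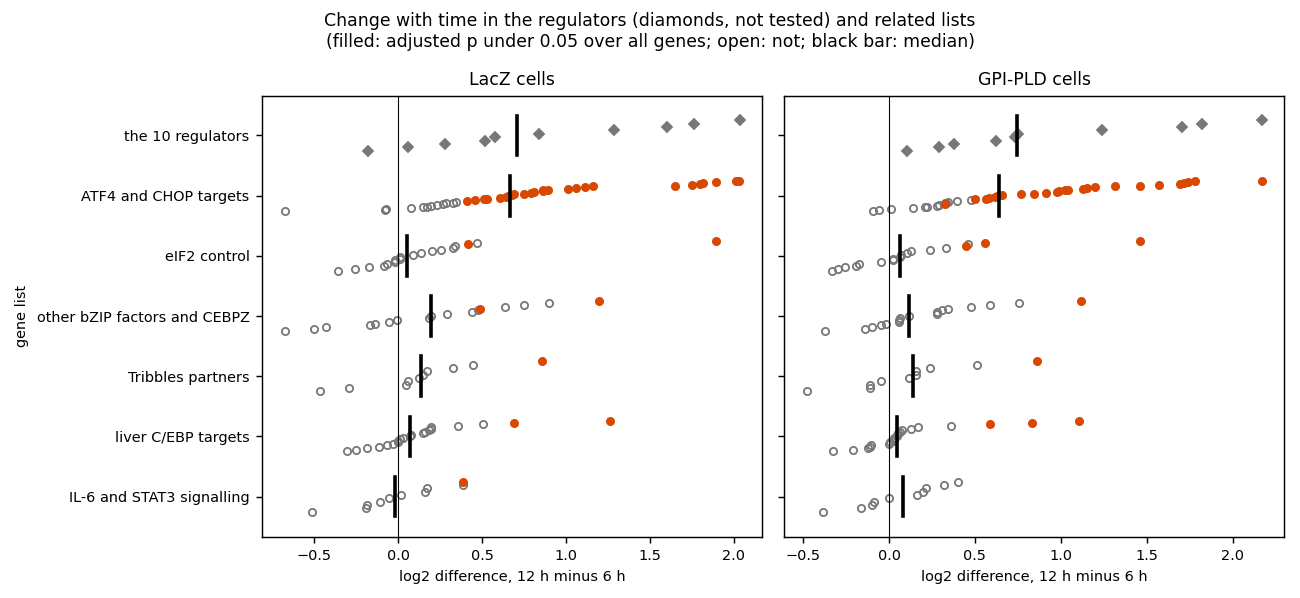
Log2 difference of 12 h minus 6 h (x axis) in LacZ (left) and GPI-PLD cells (right) for the 10 regulators (grey diamonds, chosen from such changes and not tested) and 6 related gene lists (y axis); each symbol is a gene, filled where limma's adjusted p over all genes was under 0.05, and black bars are medians. The medians of ATF4 and CHOP targets, 0.66 and 0.64, stand near those of the regulators, 0.71 and 0.74, and the other lists' medians are 0.20 or less.

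The virus comparison asked whether the GPI-PLD insert moved these regulators beyond the control insert. At 6 h none of the 10 passed the test, as 0% of all tested genes did (limma, 0 of 8109, with 2 by eBayes without trend and robust settings). An unadjusted p under 0.05 was found for 2 regulators, CEBPB and TRIB3, and for 4.62% of all genes. TRIB3 was higher in GPI-PLD than in LacZ cells by 0.26 ± 0.08 (log2, SE; adjusted p = 0.909), with means of 8791 ± 308 and 7391 ± 967 (SD). It was the single regulator with all 4 GPI-PLD arrays above all 4 LacZ arrays at 6 h, which held for 1.48% of all genes. CEBPB was higher by 0.30 ± 0.08 (adjusted p = 0.836), with means of 7178 ± 911 and 5803 ± 466.

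At 12 h again none of the 10 regulators passed, nor did any gene (0%, limma, and 0 by eBayes without trend and robust settings). Unadjusted p-values under 0.05 were found for 3 regulators, CEBPA, DDIT3 and TRIB3, beside 7.20% of all genes. CEBPA was higher in GPI-PLD cells by 0.36 ± 0.14 (adjusted p = 0.658; 0.22 without GPI-PLD 12 h replicate 2), DDIT3 by 0.34 ± 0.14 (adjusted p = 0.659) and TRIB3 by 0.21 ± 0.08 (adjusted p = 0.658). TRIB3 and ATF3 had all 4 GPI-PLD arrays above all 4 LacZ arrays, as 2.11% of all genes did. For ATF3 the means were 1984 ± 94.0 and 1755 ± 53.4, a log2 difference of 0.17 ± 0.18 (adjusted p = 0.857). The limma error of ATF3 is shared over all 4 groups and so carries the wide scatter of its 6 h arrays. Over 26 alternatives, among them a fit of only the groups compared, its limma adjusted p at 12 h was 0.795 to 0.921. At 12 h 9 of 10 regulators had a higher mean log2 signal in GPI-PLD cells, beside 4174 of all 8109 genes, with a median difference of 0.17 beside 0.01. With the probe sets of a gene averaged, CEBPD and ATF5 turned and 7 of 10 were higher. Leaving out 1 array gave 8 to 10 of 10. The signs of the 10 regulators come from the same arrays and are not independent, and the count was not tested. At 6 h 5 of 10 were higher, beside 4101 of all genes, with a median of 0.03 beside 0.00.

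Averaged over both times, none of the regulators and no other gene (0%) passed the limma test, with or without the trend and robust settings. Unadjusted p-values under 0.05 were found for CEBPA, CEBPB, DDIT3 and TRIB3, 4 of 10, beside 4.18% of all genes. TRIB3 had the fifth smallest p of all genes tested, with a log2 difference of 0.23 ± 0.06 (adjusted p = 0.998), or 1.17-fold. The 95% interval of that fold ran from 1.08 to 1.28. TRIB3 was also 1 of 3 genes, 0.0370% of those tested, with all GPI-PLD arrays above all LacZ arrays at 6 h and at 12 h. The other two, looked up after their values were seen, were NPIPA1, a nuclear pore interacting protein from a family of near-identical copies (0.42 ± 0.09, adjusted p = 0.496), and SART3, a splicing recycling factor (0.43 ± 0.10, adjusted p = 0.991). Averaged differences of DDIT3, CEBPA and CEBPB were 0.23 ± 0.10, 0.22 ± 0.10 and 0.13 ± 0.06 (adjusted p = 0.998 for each).

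**Figure D4:**
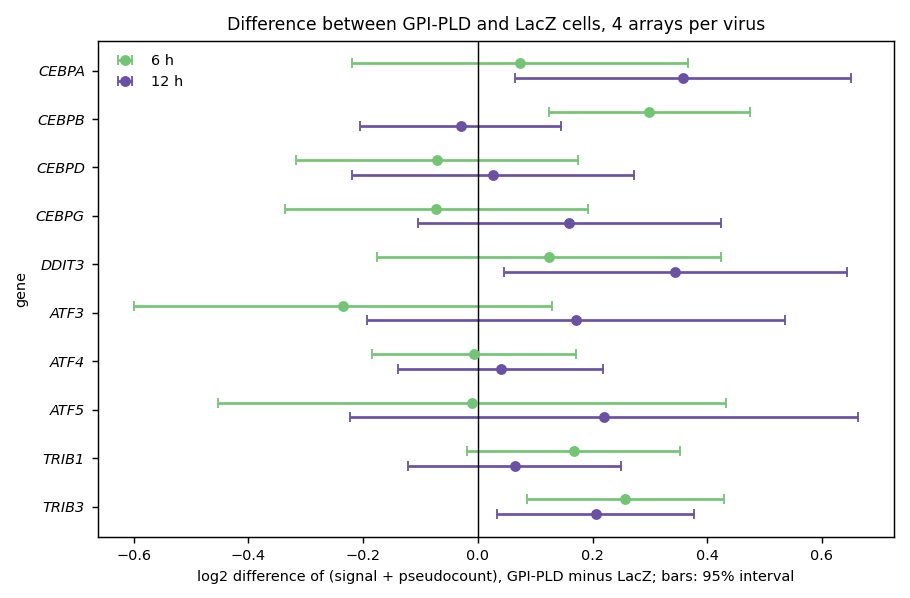
Log2 difference of signal plus pseudocount, GPI-PLD minus LacZ (x axis), for each regulator (y axis) at 6 h and at 12 h; points are limma estimates over 4 arrays per virus and bars are 95% intervals before any adjustment for the number of genes. These intervals lie wholly above 0 for TRIB3 at both times (estimates 0.26 and 0.21) and for CEBPB at 6 h (0.30). They do so for CEBPA and DDIT3 at 12 h (0.36 and 0.34), and none of these genes passes the adjusted test.

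The fit also gave 95% intervals for the difference between the viruses. The labels do not say whether each array had its own culture, so these intervals measure only how far these arrays spread. For ATF4 the 95% interval of the GPI-PLD to LacZ fold was 0.879 to 1.13 at 6 h and 0.909 to 1.16 at 12 h. For CEBPB at 12 h it was 0.868 to 1.11, and for TRIB1 it was 0.988 to 1.28 at 6 h and 0.919 to 1.19 at 12 h. ATF3 and ATF5 had the widest intervals on the log2 scale. As folds these were 0.660 to 1.09 and 0.730 to 1.35 at 6 h, and 0.874 to 1.45 and 0.856 to 1.58 at 12 h.

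Whether the virus effect itself changed between the times was tested as well. None of the 10 regulators passed, and 1 gene in all did (0.0123%), the tubulin gene TUBB2A. The count of genes differed from 1, between 0 and 3, in 22 of 25 alternative analyses. CEBPB was the 1 regulator with an unadjusted p under 0.05, as 7.58% of all genes had. Its virus effect was lower at 12 h than at 6 h by -0.33 ± 0.12 (adjusted p = 0.482), from 0.30 at 6 h to -0.03 at 12 h. ATF3 had the largest change the other way, 0.41 ± 0.25 (adjusted p = 0.734), or 0.24 without GPI-PLD 6 h replicate 1. No gene of the 6 related lists passed in any virus comparison. An unadjusted p under 0.05 was found for 5 of 38 ATF4 and CHOP targets at 6 h and for 3 at 12 h, beside 4.62% and 7.20% of all genes. PPP1R15A had the largest virus difference at 6 h among the 4 of these targets that the rule named, 0.54 ± 0.18 (adjusted p = 0.929), and 0.10 ± 0.18 at 12 h.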

How the data were processed

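For 16 arrays the authors deposited linear intensity values, which the submitters' processing notes name as MAS5 signals. The 2% trimmed mean was 1000.3 to 1000.4 in every array, and array medians ran from 304.5 to 377.6. The scanner and further steps are not given in the sources used here. Deposited order gave the replicate numbers. The labels give no replicate numbers or batches and do not say whether each array had its own culture. The p-values thus measure only how far these samples spread, which may be technical. The number of arrays limits the precision.

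Of 22283 probe sets 68 were controls, 19065 had 1 gene symbol, 1043 several and 2107 none. Each gene was read by its brightest single-symbol probe set and tested if the mean signal reached the 40th percentile (208), which left 8109 genes. Signals were analysed as log2(signal + 62.7), the 20th percentile, with no further scaling. In R 4.3.3, limma 3.58.1 (statmod 1.5.0) was fitted to all 4 groups (12 residual degrees of freedom; eBayes with trend and robust) for 6 contrasts, with Benjamini-Hochberg adjustment over all genes. The steps were tested on simulated data. Promoters were read from RefSeq (GRCh38.p14) with Python 3.11.15 and pandas 2.3.3, and figures drawn with matplotlib 3.10.9.

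The members and all lists were chosen with earlier results of these data known. Named genes were all 10 members, from each list the 3 tested genes with the largest mean time difference and the 1 with the smallest averaged virus p, the 2 nearest genes of members with a log2 time difference of at least 1 under both viruses, and the 2 brightest cell type markers. AARS1, ASNS, HERPUD1, PSAT1, PHGDH, PSPH, ERO1A, CARS1, GARS1, SLC1A5 and XBP1 were named outside the rule, after their values were seen. Alternatives were quantile and 75th percentile scaling, no pseudocount and 4 times it, no filter and the 60th percentile, averaging all probe sets per gene, array weights, eBayes with neither trend nor robust, only the groups compared, and each array left out.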

Additional observations from a re-analysis of the deposited data

Results flagged for a closer look

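Of 40 combinations of regulator and group, 2 held an array far from the other 3, and chance gives about 1 in 20. DDIT3 in LacZ 6 h replicate 1 read 789.8 where the others read 1181.8 to 1198.3, so that its gap was 0.966 of the group's range. Without that array the 6 h virus difference of DDIT3 went from 0.12 to -0.01 and its time difference in LacZ cells from 1.60 to 1.46. ATF5 in LacZ 6 h replicate 2 read 419.3 where the others read 568.4 to 586, a gap of 0.907 of the range.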

How the results depend on the processing

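No paired analysis was possible because the labels give no replicate numbers. Under each alternative (25 or 26 a comparison) 0 regulators passed any virus comparison. All values here are log2 differences or counts of genes, and the cause of a change was not tested. At 6 h the genes called numbered 0, and 2 with eBayes without trend and robust. At 12 h leaving out 1 array gave 0 to 2, with 2 without GPI-PLD replicate 2 of 12 h. For the change of the virus effect between times (1 gene) the count was 0 under quantile normalization, 75th percentile scaling, no filter, the mean of probe sets and eBayes without trend and robust, and 2 with 4 times the pseudocount and with the filter at the 60th percentile. Leaving out 1 array gave 0 to 3, reaching 3 when replicate 1 of LacZ at 6 h, replicate 1 of GPI-PLD at 6 h or replicate 2 of GPI-PLD at 12 h was omitted. Genes lower with time in GPI-PLD cells (410) ranged from 257, without GPI-PLD 6 h replicate 3, to 437 when 1 array was left out.

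Averaging all probe sets per gene, which adds dim ones, turned CEBPD at 6 h to 0.26, at 12 h to -0.34, in the change between times to -0.60 and with time in GPI-PLD cells to -0.25. It turned ATF5 at 12 h to -0.29, averaged to -0.20 and in the change between times to -0.18. Quantile normalization turned ATF4 at 6 h to 0.0087. With 4 times the pseudocount the time differences of ATF3 moved to 1.46 and 1.79. Of 1020 values of regulators in virus comparisons, 38 changed sign, mostly values near 0. With single arrays left out, the 6 h difference ranged from -0.0065 to 0.14 for CEBPA, -0.015 to 0.20 for DDIT3, -0.074 to 0.032 for ATF4 and -0.21 to 0.11 for ATF5. The 12 h difference ranged from -0.057 to 0.0069 for CEBPB, -0.042 to 0.096 for CEBPD and -0.025 to 0.079 for ATF4. The averaged difference ranged from -0.075 to 0.012 for CEBPD, -0.016 to 0.097 for CEBPG, -0.098 to 0.052 for ATF3 and -0.017 to 0.036 for ATF4. The change between times ranged from -0.018 to 0.11 for ATF4 and -0.11 to 0.011 for TRIB3. The averaged TRIB3 difference stayed between 0.20 and 0.26 with single arrays left out.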
